A study of Homo sapiens and Homo sapiens
Mus with 12 samples.

Results

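The genes described here encode the proteins of the mitochondrial ribosome. They were taken by symbol, as all protein-coding genes whose name is MRPL or MRPS followed by a number, without joined readthrough genes. The table of cultured cells held 78 such genes of 21479 listed, 49 of the large subunit (MRPL) and 29 of the small subunit (MRPS). The human gene table of the tumors held 77 of 26813, 48 and 29, since MRPL53 is not analysed there.

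The RNA came from UM-UC-3, a human bladder cancer cell line, infected with a lentivirus that carried GFP and 1 of 3 hairpins. The control cells (shCtrl) had the nonsilencing GIPZ hairpin, and the cells called sh#1 and sh#2 had GIPZ hairpins against CDH11, which encodes the cell adhesion protein cadherin-11. All 3 kinds of cell were therefore infected, GFP positive and sorted for GFP, and sh#1 and sh#2 together are called CDH11 KD. In culture there were 3 libraries of each (n = 9). In vivo there were 5 tumors of each (n = 15), grown under the skin of male BALB/cAJcl-nu/nu nude mice that were 5 weeks old at injection in Matrigel, and taken 4 weeks later. Nude mice lack mature T cells but keep other immune cells, vessels and stroma. The labels did not state that libraries of a group came from separate cultures, so the p-values in culture measure the spread between these libraries, which may be technical.

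Mitochondrial ribosomes translate the few messenger RNAs of the mitochondrial genome, which encode core subunits of the respiratory chain and of ATP synthase. Their ribosomal RNAs come from mitochondrial DNA, but all of their proteins are encoded in the nucleus, made in the cytosol and imported. The small subunit binds and decodes the messenger RNA, and the large subunit joins the amino acids and holds the exit tunnel through which the chain leaves. Many of the proteins have a bacterial counterpart, and others exist only in mitochondrial ribosomes. The nuclear genes are often described as targets of the factors NRF1, of the ETS family (GABPA), and of YY1.

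Library totals were from 2273182 to 2777019 counts in culture and from 414849 to 1248977 human counts in the tumors. A member gene had a median over libraries of 29 to 651 counts in culture and of 0 to 207 counts in the tumors, so tumor values of the low members are coarse. CDH11 had 2 to 4 counts in shCtrl, 0 to 1 in sh#1 and 0 to 2 in sh#2 cells, and 5 to 32, 1 to 9 and 2 to 14 in the corresponding tumors. Keratins KRT8 and KRT18 and vimentin (VIM) were abundant in all cultured libraries. KRT7 had 5 to 14 counts and KRT19 0 to 3, and the epithelial markers CDH1 and EPCAM were at 0. VIM had 5436 to 6060 counts in shCtrl, 5189 to 6981 in sh#1 and 8227 to 8893 in sh#2 cells. CDH2 had 99 to 106, 57 to 74 and 67 to 78, and FN1 20 to 32, 6 to 14 and 23 to 28. Of 4 mesenchymal markers (VIM, CDH2, ZEB1 and FN1) 2 were called lower with sh#1 and 1 higher with sh#2 (10.6% and 19.5% of all genes). Their part in the results was not tested. The urothelial marker UPK2 had at most 1 count. Another urothelial marker, UPK1A, had 0 to 5 counts in shCtrl, 1 to 6 in sh#1 and 16 to 20 in sh#2 cells (log2 fold change with sh#2 3.39, q = 7.41e-07), and its part in the results with sh#2 was not tested. Of the tumors, sh#1 tumor 1 had the fewest human counts and the largest share of mouse counts, 30.0% of all counts against 10.4% as the lowest of the 15. shCtrl tumor 5 stood apart from the other shCtrl tumors for the members themselves, with a mean log2 normalised CPM (counts scaled to a common library size) over the members of 5.78 against 6.05 to 6.14. Tumor results are therefore also given without this pair of tumors. The barcode list placed shCtrl, sh#1 and sh#2 tumors in library mix 01, 02 and 03, so that mix and group cannot be told apart.

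Summed over all members, the share of counts differed mainly between sh#2 and the other cultured cells. In shCtrl cells 0.589%, 0.595% and 0.583% of all counts fell on the 78 genes. In sh#1 cells the share was 0.604%, 0.616% and 0.621%, and in sh#2 cells 0.457%, 0.457% and 0.462%. The sh#1 libraries lay above, and the sh#2 libraries below, every shCtrl library. In bulk RNA, fewer cells of a type and less RNA per cell cannot be told apart. These shares are of the raw totals, and the normalization factors of the trimmed mean of M-values (TMM) method also differed between the groups, from 1.07 to 1.09 in shCtrl, 1.02 to 1.04 in sh#1 and 0.897 to 0.905 in sh#2. After this normalization the summed level of the members was 5411 to 5588 CPM in shCtrl, 5805 to 6087 CPM in sh#1 and 5070 to 5166 CPM in sh#2 cells. The groups still did not overlap, but sh#2 lay much closer to shCtrl than in the raw share.

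**Figure D1:**
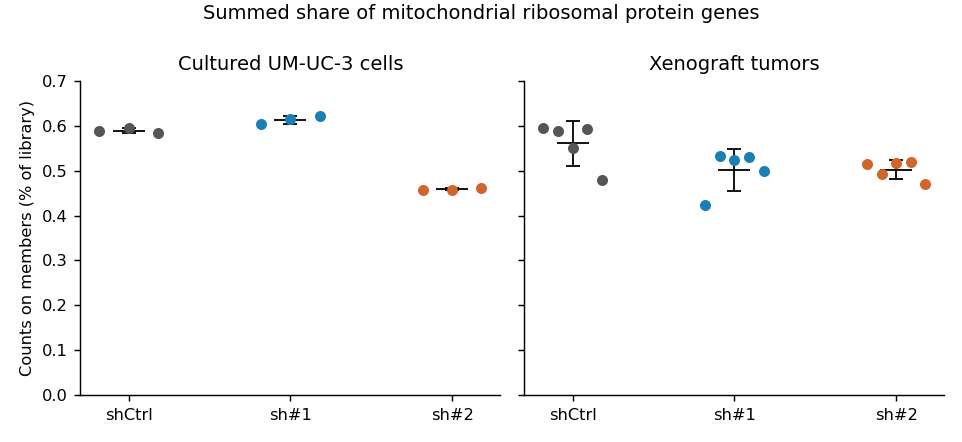
Share of all counts of a library (percent, y axis from 0) that fell on mitochondrial ribosomal protein genes, for cultured cells on the left and human counts of xenograft tumors on the right. Each point is a library or tumor, with the mean and SD of the group (n = 3 in culture, n = 5 in tumors), and the sh#2 cells at 0.457% to 0.462% stand below all other cultured libraries.

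In the tumors the same share was 0.595%, 0.589%, 0.550%, 0.594% and 0.479% in shCtrl. It was 0.423%, 0.532%, 0.524%, 0.532% and 0.500% in sh#1, and 0.515%, 0.492%, 0.517%, 0.519% and 0.470% in sh#2. All shCtrl tumors but tumor 5 lay above all CDH11 KD tumors, and tumor 5 lay below most of them.

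Each gene was compared between groups by the quasi-likelihood test of edgeR, fitted over all genes and adjusted by the Benjamini-Hochberg method (q value), with thresholds of 0.05 in culture and 0.1 in tumors. With both hairpins together against shCtrl, 5 members were higher and 3 lower in culture. The share of all 9859 genes tested that were called was 9.12% higher and 8.32% lower, against 6.41% and 3.85% of the members. The median log2 fold change of the members was 0.056, and that of all genes was 0.00017. At an unadjusted p under 0.05 there were 12 members higher and 7 lower, 15.4% and 8.97%, against 16.1% and 15.7% of all genes.

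The hairpins taken one at a time gave a different picture. With sh#1, 20 members were higher and 3 lower, which is 25.6% and 3.85% of 78, while of all genes 11.8% were called higher and 10.6% lower. The median log2 fold change of the members was 0.13, and 58 of 78 were above 0. With sh#2, 9 members were higher and 18 lower, which is 11.5% and 23.1%, while of all genes 19.5% were called higher and 18.8% lower. The median was -0.079, and 49 of 78 members were below 0. The medians of all genes were -0.0076 and -0.0063.

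Tested directly against each other, sh#1 and sh#2 cells differed in 29 members. Of these, 27 had more RNA and 2 less in the sh#1 cells, where 11.2% of all genes were called higher and 13.5% lower. The members called higher were 34.6% of the 78. The median log2 difference was 0.25, and 66 of 78 members were above 0. Without the TMM factors, that is with total counts alone, the median of all genes shifted to -0.076 with sh#1, -0.27 with sh#2 and 0.20 between them. The member medians were then 0.064, -0.34 and 0.44, and the calls were 10 higher and 4 lower, 2 and 47, and 55 and 0. In the same fits 8.68% of all genes were called higher and 14.2% lower with sh#1, 9.7% and 36.9% with sh#2, and 25.4% and 6.46% between them. For both hairpins together the member median was then -0.10 beside -0.16 for all genes, with 2 higher and 5 lower (5.24% and 14% of all genes). Upper quartile factors gave 6 higher and 22 lower with sh#2 (17.2% and 20.9% of all genes). Relative to all genes, the members thus lay above with sh#1 and below with sh#2 under each of these scalings.

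**Figure D2:**
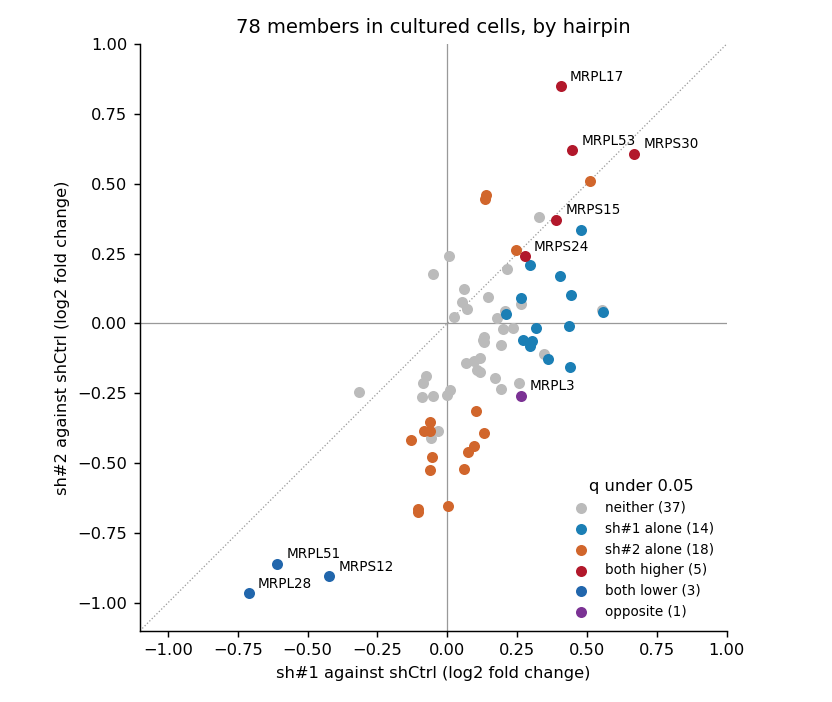
Log2 fold change against shCtrl in cultured cells with sh#1 (x axis) and with sh#2 (y axis), each point a member colored by its calls at a q value under 0.05, with the diagonal dotted. Both axes share the shCtrl libraries, and most points lie below the diagonal, as 66 of 78 members were higher in sh#1 than in sh#2.

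By calls with each hairpin, 5 members were higher with both, 3 were lower with both and 1, MRPL3, was higher with sh#1 and lower with sh#2. A further 14 were called higher only in the sh#1 comparison, 4 higher only in the sh#2 comparison and 14 lower only in the sh#2 comparison. The remaining 37 of 78 were called with neither. In percent of the members and of all genes tested, these patterns were 6.41% and 8.35% (higher with both), 3.85% and 6.6% (lower with both), 17.9% and 3.29% (higher in the sh#1 comparison only), 5.13% and 10.7% (higher in the sh#2 comparison only), 17.9% and 12.1% (lower in the sh#2 comparison only) and 47.4% and 54.9% (neither). Higher with sh#1 and lower with sh#2 were 0.152% of all genes. Both comparisons use the same shCtrl libraries, so that a high or low control library moves both.

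MRPL51, MRPL28 and MRPS12 fell with both hairpins. MRPL51, a mitochondria-specific protein of the large subunit, had normalised levels of 285, 312 and 310.2 CPM in shCtrl, 191, 198 and 206 CPM in sh#1 and 169, 161 and 170.0 CPM in sh#2 cells. The 3 groups did not overlap, with shCtrl highest and sh#2 lowest. Its log2 fold change was -0.73 ± 0.09 (SE, q = 3.29e-05) with both hairpins together, -0.61 with sh#1 and -0.86 with sh#2, and sh#1 was higher than sh#2 by 0.25 (q = 0.00953), a difference lost without sh#2 replicate 2 (q = 0.0566).

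MRPL28, the counterpart of bacterial L28, was at 24.8, 32.0 and 32.8 CPM in shCtrl, 18.04, 18.7 and 17.97 CPM in sh#1 and 13.1, 17.7 and 15.1 CPM in sh#2 cells. Every shCtrl library lay above every CDH11 KD library, and the log2 fold change was -0.83 ± 0.16 (SE, q = 0.00204). MRPS12, whose bacterial counterpart sits at the decoding centre of the small subunit, was at 54.7, 58.6 and 43.4 CPM in shCtrl, 40.6, 36.5 and 39.5 CPM in sh#1 and 24.3, 35.4 and 23.9 CPM in sh#2 cells. Here too no CDH11 KD library reached the lowest control. The log2 fold change of MRPS12 was -0.64 ± 0.17 (SE, q = 0.0146), -0.42 with sh#1 (q = 0.0192) and -0.91 with sh#2 (q = 2.26e-06), and the hairpins differed by 0.48 (q = 0.0197). Its call with both hairpins together was lost without shCtrl replicate 1 or 2, with q up to 0.0961, the difference between the hairpins was lost without any of 4 libraries (sh#1 replicates 1 and 3, sh#2 replicates 1 and 3) and under DESeq2 (q = 0.0863), and the call with sh#1 was lost without shCtrl replicate 1 or 2 or sh#1 replicate 2 and under DESeq2 (q = 0.109). MRPL51 and MRPL28 kept their calls against shCtrl with any 1 library left out.

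MRPL17, MRPS30, MRPL53, MRPS15 and MRPS24 were higher with each hairpin, and all but MRPS24 also with both together. MRPL17, the counterpart of bacterial L17, was at 48.4, 53.7 and 47.3 CPM in shCtrl, 59.9, 72.2 and 65.9 CPM in sh#1 and 111, 71.2 and 86.7 CPM in sh#2 cells. All CDH11 KD libraries lay above the controls, and the sh#2 libraries were more spread than the others. Its log2 fold change was 0.64 ± 0.17 (SE, q = 0.0152), and it was 1 of the 2 members lower in sh#1 than in sh#2 (-0.44, q = 0.00451, and 0.142 without sh#2 replicate 1, the highest library). Its call with sh#1 alone was lost without shCtrl replicate 1 or 3 or sh#1 replicate 2, and under DESeq2 and total counts, with q up to 0.0931.

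MRPS30 carries a small subunit symbol but sits in the large subunit in the solved structures. It was at 20.1, 20.9 and 19.4 CPM in shCtrl, 31.6, 30.9 and 33.5 CPM in sh#1 and 34.5, 25.8 and 31.7 CPM in sh#2 cells. The controls lay close together below all other libraries, and the log2 fold change was 0.64 ± 0.14 (SE, q = 0.00567). MRPL53, a mitochondria-specific protein of the large subunit, was at 36.2, 49.6 and 37.7 CPM in shCtrl, 54.5, 60.4 and 53.5 CPM in sh#1 and 59.3, 69.3 and 60.9 CPM in sh#2 cells. The groups of CDH11 KD and shCtrl cells did not overlap, and the log2 fold change was 0.53 ± 0.13 (SE, q = 0.00986).

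MRPS15, the counterpart of bacterial S15, was at 103, 122 and 106 CPM in shCtrl, 131, 146 and 156 CPM in sh#1 and 137, 138 and 153 CPM in sh#2 cells. It rose by a log2 fold change of 0.38 ± 0.10 (SE, q = 0.0119), by nearly the same amount with either hairpin (0.39 and 0.37). Without shCtrl replicate 1 or 3, the calls for MRPL17, MRPL53 and MRPS15 with both hairpins together were lost, with q up to 0.0805, 0.0709 and 0.0765, while MRPS30 passed with any 1 library left out. With total counts alone MRPL53 (q = 0.0574) and MRPS15 (q = 0.17) were not called, nor were MRPS30 (q = 0.0839) and MRPS15 (q = 0.31) with sh#2 alone. The call of MRPL53 with sh#1 was lost without shCtrl replicate 1 or 3, with q up to 0.0563.

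MRPS24, the counterpart of bacterial S3 at the entry site of the messenger RNA, was at 132, 143 and 119 CPM in shCtrl, 166, 156 and 155 CPM in sh#1 and 173, 149 and 143 CPM in sh#2 cells. The lowest sh#2 library was level with the highest control, and the log2 fold change was 0.28 with sh#1 (q = 0.0119), 0.24 with sh#2 (q = 0.0231) and 0.26 with both together (q = 0.0689). Its call with sh#2 was lost with upper quartile factors, and both its calls were lost under DESeq2 and with total counts, where the value with sh#2 was -0.018 (q = 0.882), and without shCtrl replicate 3 or replicate 1 of the hairpin. MRPL55, the counterpart of bacterial L31, had 31 to 52 counts in a library. Its levels were 12.2, 13.1 and 14.1 CPM in shCtrl, 18.04, 19.99 and 18.3 CPM in sh#1 and 18.7, 17.2 and 20.5 CPM in sh#2 cells. The groups did not overlap, but the call (log2 fold change 0.51 ± 0.17, q = 0.0417) was lost under DESeq2 (q = 0.104), with upper quartile factors or total counts, without the low-count filter, and without any of 7 of the 9 libraries, the 3 controls among them.

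**Figure D3:**
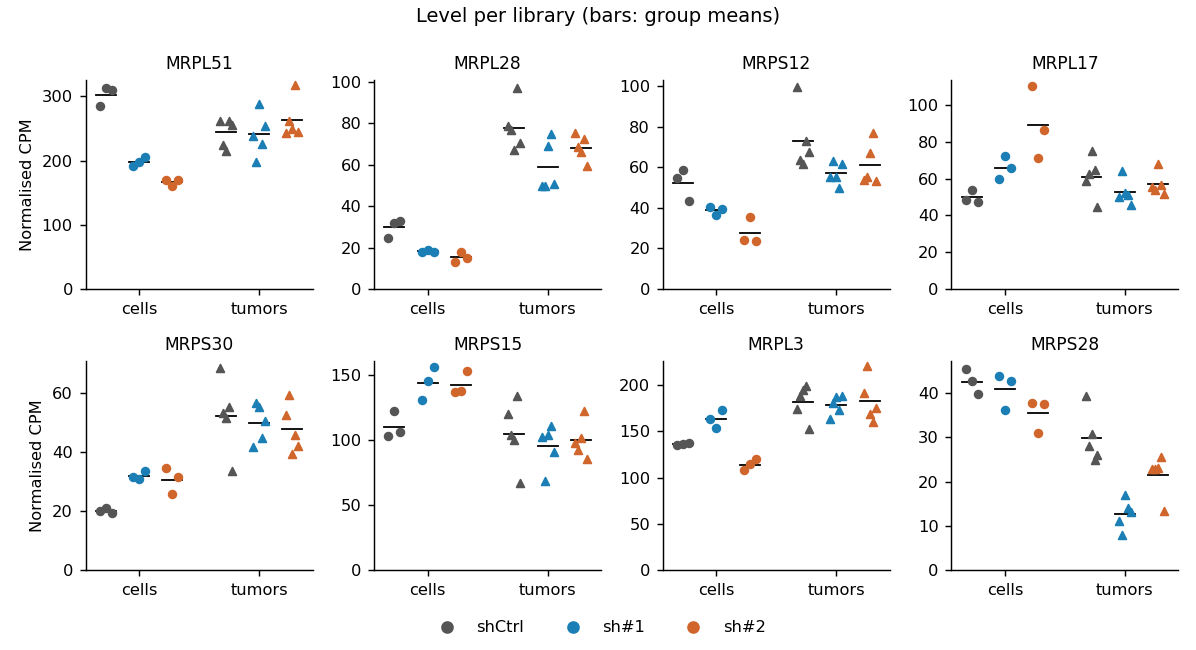
Normalised level (CPM, y axes from 0) of 8 named members in each cultured library (circles, 3 a group) and each tumor (triangles, 5 a group), colored by group, with a line at the mean of the group. MRPL51 fell from 285 to 312 CPM in shCtrl to 161 to 206 CPM with the hairpins, and in culture MRPL3 lies above shCtrl with sh#1 and below it with sh#2.

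The clearest contrast between the hairpins was MRPL3, the counterpart of bacterial L3, a core protein of the large subunit. Its levels were 136, 137 and 138 CPM in shCtrl, 164, 153 and 174 CPM in sh#1 and 108, 115 and 119.8 CPM in sh#2 cells. All sh#1 libraries lay above and all sh#2 libraries below the tight controls. The log2 fold change was 0.26 ± 0.08 (SE, q = 0.0117) with sh#1 and -0.26 ± 0.09 (SE, q = 0.0135) with sh#2, and sh#1 exceeded sh#2 by 0.52 ± 0.08 (SE, q = 2.47e-06). The difference between the hairpins passed under every alternative run, while the call with sh#1 was lost under DESeq2 (q = 0.071), total counts and without sh#1 replicate 3 (q = 0.0804), and that with sh#2 under DESeq2 (q = 0.05) and without sh#2 replicate 1 (q = 0.0723).

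MRPL41, a mitochondria-specific protein of the large subunit, was at 149, 146 and 163 CPM in shCtrl, 175, 166 and 162 CPM in sh#1 and 131, 118 and 99.8 CPM in sh#2 cells. All sh#2 libraries lay below the controls, and 2 of the 3 sh#1 libraries above them, and sh#1 exceeded sh#2 by a log2 difference of 0.53 (q = 5e-06). MRPL20 was at 113, 112 and 97.9 CPM in shCtrl, 111, 115 and 113 CPM in sh#1 and 75.6, 84.1 and 75.0 CPM in sh#2 cells, a difference of 0.53 (q = 2.35e-05). MRPS26, which exists only in mitochondrial ribosomes, was at 74.4, 79.5 and 80.8 CPM in shCtrl, 70.5, 68.2 and 78.9 CPM in sh#1 and 52.7, 46.8 and 47.2 CPM in sh#2 cells, a difference of 0.57 (q = 0.000137). For these 3 genes the log2 fold changes with sh#2 were -0.39, -0.46 and -0.68, and those with sh#1, from -0.10 to 0.13, did not pass the test.

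MRPL52, also mitochondria-specific, showed the other form of difference. It was at 153, 142 and 144 CPM in shCtrl, 178, 179 and 182 CPM in sh#1 and 137, 144 and 134 CPM in sh#2 cells. It rose with sh#1 (0.30, q = 0.00291), was not called with sh#2 (-0.08, q = 0.455), and the hairpins differed by 0.38 (q = 0.000209).

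Of the members called lower in the sh#2 comparison only, MRPL12, which forms the flexible stalk that recruits translation factors, had a log2 fold change of -0.52, MRPS7, a protein of the head of the small subunit, one of -0.66, and MRPS34 one of -0.48. Of those called higher in the sh#1 comparison only, MRPL32 had 0.56, MRPS35 0.44 and MRPL58 0.48. For MRPL58 the hairpins did not differ past the threshold (0.33 with sh#2, difference 0.14, q = 0.576), and its call was lost under DESeq2, with total counts and without any of 4 libraries (shCtrl replicates 1 and 3, sh#1 replicates 1 and 2), with q up to 0.135. MRPL58 is a ribosome protein that also acts as a peptidyl-tRNA hydrolase.

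The start regions of a few of these genes are shown because their members moved together in 1 direction (MRPL51 and MRPS12, lower, and MRPL17, higher) or apart with the hairpins (MRPL3). Each runs from 250 bases before to 50 after the start of the gene in RefSeq, build GRCh38.p14, 5′ to 3′ on the strand of the gene. Capitals mark matches, on either strand, to an ETS motif (CCGGAAG), a YY1 motif (AAGATGG) or an NRF1 motif (CGCATGCG). The regions are chr12:6493213-6493512 (minus strand) for MRPL51, chr19:38930694-38930993 (plus strand) for MRPS12, chr11:6683291-6683590 (minus strand) for MRPL17 and chr3:131502922-131503221 (minus strand) for MRPL3.
MRPL51: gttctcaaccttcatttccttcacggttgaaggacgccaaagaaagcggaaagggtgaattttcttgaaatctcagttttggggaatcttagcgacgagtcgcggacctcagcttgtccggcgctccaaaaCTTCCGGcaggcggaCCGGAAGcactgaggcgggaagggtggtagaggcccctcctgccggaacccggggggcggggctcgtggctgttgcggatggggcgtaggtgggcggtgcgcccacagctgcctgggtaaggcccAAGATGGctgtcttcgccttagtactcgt
MRPS12: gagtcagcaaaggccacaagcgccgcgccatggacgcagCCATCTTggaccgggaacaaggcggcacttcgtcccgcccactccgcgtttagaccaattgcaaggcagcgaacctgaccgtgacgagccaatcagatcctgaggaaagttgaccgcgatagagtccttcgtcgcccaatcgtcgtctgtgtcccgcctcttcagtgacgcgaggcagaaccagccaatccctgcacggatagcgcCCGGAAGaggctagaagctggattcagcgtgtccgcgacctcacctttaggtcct
MRPL17: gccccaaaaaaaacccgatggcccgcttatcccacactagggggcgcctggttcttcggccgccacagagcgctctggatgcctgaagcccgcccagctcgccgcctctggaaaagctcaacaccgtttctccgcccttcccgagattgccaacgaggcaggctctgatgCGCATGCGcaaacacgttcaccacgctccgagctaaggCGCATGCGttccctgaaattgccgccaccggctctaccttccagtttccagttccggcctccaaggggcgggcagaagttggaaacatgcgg
MRPL3: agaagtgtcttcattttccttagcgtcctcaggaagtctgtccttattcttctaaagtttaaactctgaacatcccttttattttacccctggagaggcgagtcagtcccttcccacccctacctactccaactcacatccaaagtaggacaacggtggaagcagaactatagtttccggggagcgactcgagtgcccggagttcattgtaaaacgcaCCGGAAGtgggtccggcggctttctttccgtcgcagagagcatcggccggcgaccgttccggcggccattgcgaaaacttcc
The regions of MRPL51 and MRPS12 held ETS and YY1 motifs. That of MRPL17 held the NRF1 motif at a pair of places and neither of the others, and that of MRPL3 held an ETS motif. MRPL28, lower, had an ETS but no YY1 motif, and MRPS30, higher, had a YY1 but no ETS motif (regions not shown). Of the other members higher with each hairpin, MRPL53 had an ETS motif, MRPS24 a YY1 motif and MRPS15 neither. Whether the motifs bear on the direction was not tested.

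Of the 78 members, 70 had such a region in the table. The ETS motif was in 29 of them (41.4%), against 14.2% of all 15843 gene start regions of this length. The YY1 motif was in 23 (32.9%), against 6.4% of all. The NRF1 motif was in 3 (4.29%), against 2.88%, and the SP1 motif GGGCGG in 43 (61.4%), against 58.5%. These are matches of letters and no record of binding.

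In the GENCODE annotation (version 44) the 78 genes lay on 21 chromosomes, at most 8 of them on the same one, chromosome 1. For 27 of them (34.6%) another protein-coding gene started within 1000 bp on the opposite strand, against 13.4% of all 19757 protein-coding genes. Some of these partners pointed away from the member, and others overlapped its start. In culture both genes of 19 such pairs were tested, and in 9 of them the log2 fold changes of CDH11 KD had the same sign. MRPL46 and MRPS11 are partners of each other and are counted from either side. MRPS12 shares its start region with SARS2, the mitochondrial seryl-tRNA synthetase, 181 bp away, which had a log2 fold change of -0.21 (q = 0.578) where MRPS12 fell by 0.64. MRPL51 and NCAPD2, a condensin subunit, overlap on opposite strands, and NCAPD2 was at -0.14 (q = 0.309). The partners that fell were TWNK, the mitochondrial DNA helicase next to MRPL43 (-0.91, q = 0.00840), and PPP1R10, a regulator of protein phosphatase next to MRPS18B (-0.71, q = 0.00269). Whether counting used the strand is not given in the sources used here, so reads of overlapping genes may be shared, as may be the case for 37 members that overlap a protein-coding gene.

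The large and small subunit had medians of the same sign in each comparison. In culture with both hairpins together, 3 of 49 large subunit genes were higher and 2 lower, and 2 of 29 small subunit genes were higher and 1 lower, with median log2 fold changes of 0.088 and 0.040. With sh#1 the medians were 0.15 and 0.097, with 13 higher and 2 lower in the large and 7 and 1 in the small subunit. With sh#2 they were -0.12 and -0.063, with 6 higher and 13 lower against 3 and 5. Between sh#1 and sh#2 they were 0.25 and 0.20, with 18 higher and 2 lower against 9 and 0. With sh#1, 26.5% of the large and 24.1% of the small subunit genes were higher and 4.08% and 3.45% lower (all genes 11.8% and 10.6%). With sh#2, 12.2% and 10.3% were higher and 26.5% and 17.2% lower (all genes 19.5% and 18.8%). Between the hairpins 36.7% and 31% were higher and 4.08% and 0% lower (all genes 11.2% and 13.5%). With both together 9.12% of all genes were higher and 8.32% lower. No test was run over the lists.

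The ratio of large to small subunit counts varied little. It was 1.58 to 1.61 in shCtrl, 1.54 to 1.55 in sh#1 and 1.49 to 1.55 in sh#2 cells, so that every CDH11 KD library lay below the controls. This ratio is of summed raw counts, in which abundant genes weigh most, such as MRPL51 (725 to 814 counts in shCtrl, 337 to 584 in CDH11 KD). The part of MRPL51 in the ratio was not tested. The medians of log2 fold change, which weigh genes alike, were higher for the large subunit with both hairpins (0.088 and 0.040) and sh#1 (0.15 and 0.097). With sh#2 the large subunit was lower (-0.12 and -0.063). In the tumors it was 1.92 to 2.17, 1.94 to 2.15 and 1.96 to 2.32, with full overlap.

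**Figure D4:**
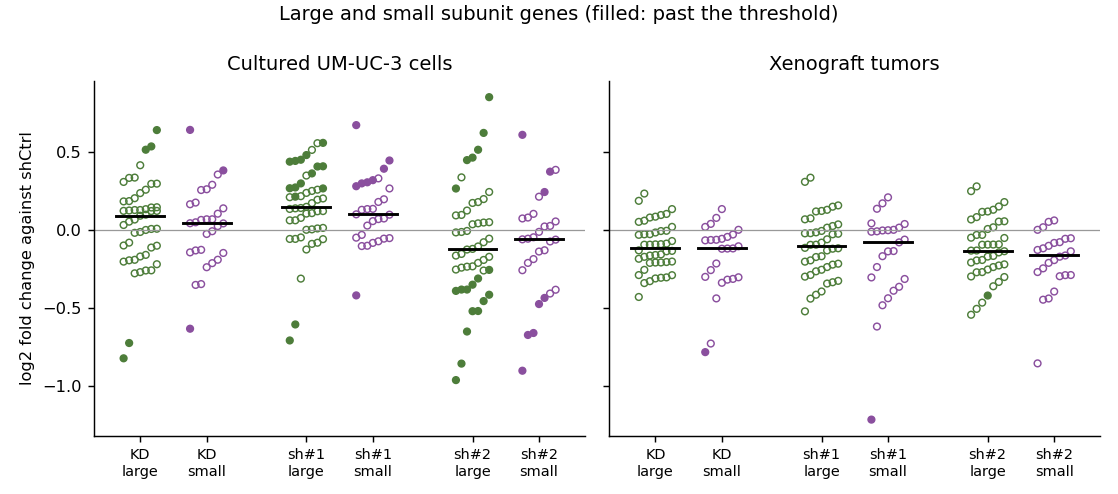
Distribution of log2 fold changes of large and small subunit genes (y axis) for CDH11 KD, sh#1 and sh#2 against shCtrl, in culture on the left and in tumors on the right. Each point is a member, filled where it passed the threshold, and the bar is the median, which in culture lies above 0 with sh#1 (0.15 and 0.097) and below 0 with sh#2 (-0.12 and -0.063).

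Some symbols do not give the true place of the protein. MRPS30 and MRPS18A sit in the large subunit, MRPS18B and MRPS18C in the small subunit, and MRPS36 is now known as a component of the oxoglutarate dehydrogenase complex of the citric acid cycle. The MRPS18 genes are 3 paralogs that share their counterpart in bacterial S18. In culture their log2 fold changes with both hairpins were -0.03 (MRPS18A), -0.01 (MRPS18B) and -0.13 (MRPS18C), and MRPS36 was at 0.17, all without a call, in contrast to MRPS30. Moving MRPS30 and MRPS18A to the large subunit and leaving out MRPS36 gave medians of 0.088 and 0.040.

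Split in another way, chosen after the data were seen, the 46 members with a bacterial counterpart and the 31 that are mitochondria-specific had medians of 0.13 and 0.11 with sh#1 and of -0.12 and -0.019 with sh#2. Between the hairpins they had 18 higher and 1 lower (39.1% and 2.17%), and 9 and 1 (29% and 3.23%). Of all genes 11.2% were higher and 13.5% lower there.

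In the tumors 69 members had enough counts to be tested. The other 8, with 0 to 16 counts in a tumor, were MRPS22, MRPS18A, MRPL38, MRPS24, MRPL9, MRPS11, MRPL46 and MRPL23. MRPS24 had 293 to 440 counts in a cultured library and 0 to 4 in a tumor, and the tables were made by different programs. With both hairpins together 0 members were higher and 1 lower at a q value under 0.1, where 0.697% of the 9184 genes tested were called higher and 0.817% lower. At an unadjusted p under 0.05 in edgeR there were 12 members, all lower (17.4% of 69, against 6.37% of all genes lower and 6.3% higher), and DESeq2 called 0 higher and 3 lower (0.871% and 0.915% of all genes). The log2 fold changes were below 0 for 55 of 69 members, with a median of -0.12 against 0.0055 for all genes.

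With sh#1, 0 were higher and 1 lower (0.773% and 0.708% of all genes) with a median of -0.098, and with sh#2, 0 and 1 (1.36% and 1.32%) with a median of -0.14. Between sh#1 and sh#2 tumors no member passed (0.642% and 0.544% of all genes), with 9 at an unadjusted p under 0.05 in edgeR (6 higher and 3 lower, 8.7% and 4.35%, against 4.98% and 4.97% of all genes), 0 calls under DESeq2 and a median of 0.055. The large and small subunit had medians of -0.12 and -0.12 with both hairpins, -0.11 and -0.082 with sh#1, and -0.13 and -0.17 with sh#2.

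The member called was MRPS28, the counterpart of bacterial S1 in the small subunit. Its levels were 39.3, 28.1, 30.8, 24.9 and 26.04 CPM in shCtrl tumors, 11.1, 7.91, 17.0, 14.1 and 13.1 CPM in sh#1 tumors and 22.7, 22.8, 23.0, 25.6 and 13.4 CPM in sh#2 tumors. All sh#1 tumors lay below all shCtrl tumors, while sh#2 tumor 4 overlapped with them. The log2 fold change was -1.22 ± 0.24 (SE, q = 0.00265) with sh#1, -0.45 ± 0.22 (SE, q = 0.353) with sh#2 and -0.79 ± 0.21 (SE, q = 0.073) with both together. The difference between the hairpins did not pass (-0.77, q = 0.201). The call with both together was lost when the mouse to human count ratio was added as a covariate (q = 0.176), and without any of shCtrl tumors 1, 2 and 3 or sh#1 tumors 3 and 5.

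MRPL41 was the member lower with sh#2. It was at 169, 212, 166, 195 and 176 CPM in shCtrl tumors, 178, 145, 165.5, 159.9 and 172 CPM in sh#1 tumors and 127, 118, 153, 142 and 143 CPM in sh#2 tumors. The sh#2 tumors lay below all shCtrl tumors, with a log2 fold change of -0.42 ± 0.12 (SE, q = 0.0591), and MRPL41 was also lower with sh#2 in culture. The tumor call was lost without any of shCtrl tumors 2 and 4 or sh#2 tumors 1 and 2, with q up to 0.184. The next members in order were seen only after the fact, MRPS34 at -0.44 (q = 0.107), MRPS17, the counterpart of bacterial S17, at -0.73 (q = 0.116) and MRPS18B at -0.34 (q = 0.117), each with both hairpins together.

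These counts of calls depend on a few tumors. Without shCtrl tumor 5 and sh#1 tumor 1, 5 members were lower with both hairpins (MRPS28, MRPL41, MRPS17, MRPS18B and MRPS34), 1 with sh#1 (MRPS28) and 7 with sh#2 (MRPL41, MRPS17, MRPS34, MRPL21, MRPL33, MRPL45 and MRPS21), and none higher. In these fits 2.36% of all genes were called lower with both hairpins, 1.32% with sh#1 and 3.72% with sh#2. The medians were -0.18, -0.13 and -0.22. Without shCtrl tumor 5 alone, 4, 2 and 5 members were lower, and the shares of all genes in those fits were not counted. shCtrl tumor 5 was left out because its members were low, which by itself raises the level of the members in the remaining controls. The calls gained without it follow in part from that choice and are no evidence of lower members.

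The 76 mouse Mrpl and Mrps genes had 97 to 333 counts in a tumor, 0.0591% to 0.187% of the mouse counts, with overlap among the 3 groups. How human and mouse reads were separated is not given in the sources used here. Human pseudogenes took few counts, with the exception of MRPL45P2, which had 6 to 23 counts in a tumor and 186 in all against 531 for MRPL45. The values of MRPL45 in tumors are uncertain to that extent.

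Whether the effect of CDH11 KD differed between culture and tumors was tested for each gene by an interaction term in limma-voom at a q value under 0.05. Of 69 members 1 was higher and 4 lower in the effect in tumors minus that in culture, where 5.06% of the 8307 genes tested in both were called higher and 4.3% lower. The median difference of the members was -0.15. The systems share no library, but they differ in sequencer, trimming and mapping as well as in the setting of the cells.

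MRPL51, the member with the smallest p in culture, had tumor levels of 262, 224, 215, 262 and 256 CPM in shCtrl, 239, 198, 287, 226 and 254 CPM in sh#1 and 243, 262, 249, 318 and 244 CPM in sh#2. The 3 groups of tumors overlapped, with a log2 fold change of 0.05 (q = 0.892), and the effect in tumors exceeded that in culture by 0.76 ± 0.15 (SE, q = 0.000555).

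MRPL17 was at 58.6, 62.7, 75.2, 64.9 and 44.4 CPM in shCtrl, 49.9, 64.4, 52.0, 51.1 and 45.5 CPM in sh#1 and 55.4, 53.7, 68.0, 56.6 and 51.6 CPM in sh#2 tumors. Its groups overlapped (-0.16, q = 0.664), and the difference from culture was -0.77 ± 0.21 (SE, q = 0.0143). MRPS30 had 33.7 to 68.2 CPM in shCtrl, 41.6 to 56.5 CPM in sh#1 and 39.3 to 59.1 CPM in sh#2 tumors, with a difference of -0.76 ± 0.21 (SE, q = 0.0181) that was lost without shCtrl replicate 1 or 3 of the cells or shCtrl tumor 1 (q up to 0.0609). MRPL17 and MRPS30, called higher in culture, thus had log2 fold changes in tumors of -0.16 and -0.12, neither called.

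MRPL58 differed by -0.78 ± 0.23 (SE, q = 0.0258), from 0.41 in culture to -0.34 in tumors, neither of them called with both hairpins, and this difference was lost without shCtrl replicate 1 or 3 of the cells or shCtrl tumor 4 (q up to 0.0826). MRPL45, which lies at the tunnel exit, differed by -0.68 ± 0.22 (SE, q = 0.0471), a call lost with edgeR (q = 0.0703) and without any of 17 of the 24 libraries. MRPL51 and MRPL17 passed with any 1 library left out. With sh#1 alone 1 member was higher and 4 lower (3.14% and 2.9% of all genes), and with sh#2 alone 3 and 4 (11.2% and 11%). MRPL51 passed with each hairpin alone, with q values of 0.00851 and 1.48e-06, as did MRPS30 with 0.0396 and 0.0104. MRPL17 (q = 0.067) and MRPL45 (q = 0.376) did not pass with sh#1, nor MRPL58 with sh#2 (q = 0.0601). MRPS28 passed with sh#1 (-1.17, q = 0.00752), but not with sh#2 (q = 0.625) or with both together (q = 0.0712).

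Over the 69 members, fold changes in culture and in tumors (log2) had a Pearson correlation of 0.24 and a Spearman correlation of 0.27, across genes, which are not independent replicates. Of them 30 were above 0 in culture and below 0 in tumors, 25 below in both, 10 above in both and 4 below in culture and above in tumors. Over all 8307 genes the correlations were 0.17 and 0.13, and the corresponding counts were 1805, 2209, 2346 and 1947.

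**Figure D5:**
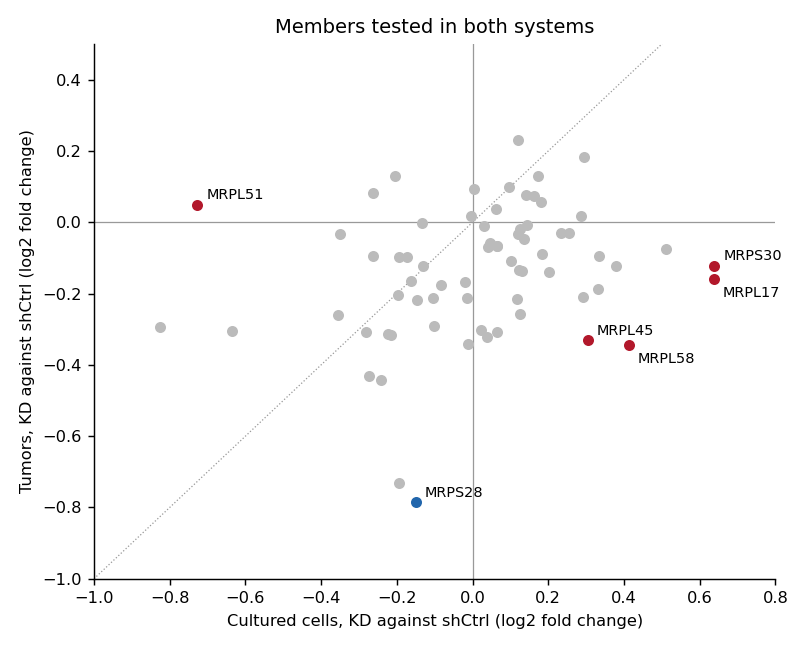
Log2 fold change of CDH11 KD against shCtrl in cultured cells (x axis) and in tumors (y axis) for the 69 members tested in both, with the diagonal dotted. Red points passed the interaction test, the blue point is MRPS28, called in tumors, and most points lie below 0 on the y axis (55 of 69).

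Other genes that make or serve the mitochondrial ribosome were counted for comparison, in culture with both hairpins together. In this comparison 9.12% of all genes were called higher and 8.32% lower. Of 5 ribosome proteins under other symbols 1 was higher and 0 lower: DAP3, a GTP-binding protein of the small subunit, which rose from 81.6 to 83.4 CPM in shCtrl to 97.4 to 114 CPM in CDH11 KD cells (0.39 ± 0.09, q = 0.00840). Of 25 assembly and rRNA modification genes 0 were higher and 1 lower, MALSU1, an assembly factor of the large subunit (-0.42, q = 0.0147). Of 14 translation factors 1 was higher, the release factor MTRF1L (0.48, q = 0.0103), and 1 lower, the rescue factor MTRFR (-0.42, q = 0.0250). Of 23 genes for charging mitochondrial tRNAs 2 were higher, GARS1 (0.60, q = 0.000475) and HARS2 (0.55, q = 0.0116), the glycyl- and histidyl-tRNA synthetases, and 0 lower. Without shCtrl replicate 1 the calls of MALSU1, MTRFR, HARS2 and MTRF1L were lost, as were those of MALSU1 and MTRFR without shCtrl replicate 2 and that of HARS2 without shCtrl replicate 3, with q up to 0.0947, 0.138, 0.0562 and 0.0512. With total counts the calls of DAP3 (q = 0.154), MTRF1L (q = 0.0816) and HARS2 (q = 0.0603) were lost.

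Of 5 genes of mitochondrial DNA transcription 0 were higher and 1 lower, TFB2M, a transcription factor of the mitochondrial polymerase (-0.97, q = 0.0391). It had only 30 to 32 counts in shCtrl, 18 to 21 in sh#1 and 3 to 12 in sh#2 cells. Its call was lost without any of 6 libraries, the 3 controls among them. Of 7 regulators of mitochondrial biogenesis 1 was higher and 3 lower. MYC was at 51.6, 56.2 and 66.3 CPM in shCtrl, 137, 116 and 117 CPM in sh#1 and 108, 108 and 120.3 CPM in sh#2 cells, a rise of 1.02 ± 0.11 (SE, q = 8.63e-06) with no overlap. PPARGC1B fell by 1.81 (q = 0.000738) and PPRC1 by 0.93 (q = 0.00231), both coactivators of the PGC-1 family. PPARGC1B had only 22 to 34 counts in shCtrl, 8 to 11 in sh#1 and 3 to 5 in sh#2 cells. The assembly genes had 2 higher and 8 lower of 25 with sh#2 and 0 and 1 with sh#1, and between the hairpins 6 were higher with sh#1 and 0 lower, with a median difference of 0.25. In these comparisons 19.5% and 18.8% of all genes were called with sh#2, 11.8% and 10.6% with sh#1, and 11.2% and 13.5% between the hairpins.

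In the tumors none of the genes of these lists passed the threshold with both hairpins together in edgeR, including those named here. The assembly genes had a median of -0.16, with 7 of 23 at an unadjusted p under 0.05, all lower, and the tRNA charging genes one of -0.17, with 2 of 19. Of all genes 6.3% were higher and 6.37% lower at this p in edgeR, with a median of 0.0055. The mitochondrial rRNAs MT-RNR1 and MT-RNR2 were analysed only in the tumors, where their log2 fold changes were from 0.57 to 0.61 without a call. MT-RNR1 was at 3363 to 4827 CPM in shCtrl and 3894 to 5372 CPM in sh#2 tumors, and reached 23180 CPM in 1 sh#1 tumor.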

How the data were processed

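RNA-seq was analysed for 9 cultured UM-UC-3 libraries and 15 xenograft tumors. The authors deposited unnormalised read counts per gene. Cultured reads were trimmed in CLC Genomics Workbench and placed on hg38 by RaNAseq, and tumor reads passed through Trim Galore and then HISAT2, also on hg38. Versions, the counting tool, the annotation, molecular identifiers and the separation of human and mouse reads are not given in the sources used here. In culture, 13 genes are not analysed here.

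From the counts, edgeR 4.0.16 in R 4.3.3 (TMM, filterByExpr, robust quasi-likelihood fit, Benjamini-Hochberg adjustment over all genes) compared both hairpins with shCtrl, and in a fit of 3 groups each hairpin and their difference. Levels are CPM of the TMM-scaled libraries, and the mean log2 level adds 1 CPM. The effects in both systems were compared with limma 3.58.1 (voom with quality weights). The fits were tested on simulated data.

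The members and lists were chosen with earlier results of these data known. Members named were those called with both hairpins together (up to 15 by p), those that differed most between hairpins (up to 5), those called in opposite directions, in the interaction (up to 5) or with each hairpin (up to 8), MRPS30, MRPS36 and the MRPS18 paralogs, and up to 3 called genes of each pathway list. MRPL12, MRPL32, MRPS7, MRPS17, MRPS34, MRPS35, the members listed without a value, and the partners on the opposite strand were named after their values were seen, as were the motif regions shown. Alternatives were DESeq2 1.42.0, other scalings and filters, the replicate number as a block, a mouse covariate, pseudogene sums and each library left out. Every pair of replicates differed beyond counting noise (chi-square test), so each library was kept.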

Additional observations from a re-analysis of the deposited data

Results flagged for a closer look

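In groups of 5 tumors, a single tumor was singled out where it lay far from the other 4 by Dixon's ratio (limit 0.71). Of 63 such groups 4 passed, and chance gives about 1 in 20. MRPL51 was at 318 CPM in sh#2 tumor 4, against 243 to 262 CPM in the other sh#2 tumors. MRPS28 was at 13.4 CPM in sh#2 tumor 5, against 22.7 to 25.6 CPM. MRPS18C was at 4.27 CPM in sh#2 tumor 1, against 10.7 to 12.5 CPM, with few counts behind each value. The mean log2 level of all members was 5.78 in shCtrl tumor 5, against 6.05 to 6.14 in the other shCtrl tumors.

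The effect of CDH11 KD differed between tumors and cultured cells for 5 members in the interaction test of limma-voom. The log2 differences were 0.76 (MRPL51), -0.77 (MRPL17), -0.76 (MRPS30), -0.78 (MRPL58) and -0.68 (MRPL45). Of 69 members 1.45% were higher and 5.8% lower, against 5.06% and 4.3% of all 8307 genes tested in both. The call of MRPL45 was lost without any of 17 of the 24 libraries and with edgeR (q = 0.0703). Those of MRPS30 and MRPL58 were each lost without any of 3 libraries. The systems also differed in sequencer, trimming and mapping, and the part of these in the differences was not tested.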

How the results depend on the processing

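Of the count and median summaries, 430 values under alternatives stayed close to the reported one and 74 moved. Of the values of single genes and subunits 3685 were counted as the same, 133 lost and 36 gained a call, and 7 moved without a test. The remaining 1 had been called and changed direction, MRPS24 with sh#2 in culture (-0.018 with total counts). A change of sign in a value not called was counted among the 3685, whatever its new q value. So were differences between the subunits that stayed within the SD between libraries, which have no threshold. The causes were not tested. In culture, both hairpins together gave 13 higher and 7 lower as the mean of the hairpins in the fit of 3 groups. In that fit 16.5% of all genes were called higher and 16.8% lower. Upper quartile factors gave a median of 0.025. Total counts gave 2 higher and 5 lower (5.24% and 14% of all genes) and a median of -0.10. With sh#1, 8 were higher under DESeq2 (7.65% of all genes), and with total counts 10 (8.68%) with a median of 0.064. With sh#2, 5 were higher under DESeq2 (14.8% of all genes), and the median was -0.12 with upper quartile factors. Total counts gave 2 higher and 47 lower (9.7% and 36.9% of all genes) and a median of -0.34. Between the hairpins, 1 was lower under DESeq2, without the low-count filter and with upper quartile factors (9.11%, 9.22% and 12.7% of all genes). Total counts gave 55 higher and 0 lower (25.4% and 6.46% of all genes) and a median of 0.44. In tumors, the lower members with both hairpins were 3 under DESeq2 and upper quartile factors (0.915% and 0.969% of all genes). They were 2 without the filter and with at least 10 counts in every library (0.619% and 1.23%). As the mean of the hairpins and with total counts they were 4 (1.42% and 1.24%). With the mouse covariate they were 0 (0.425%), and without shCtrl tumor 5 and sh#1 tumor 1 they were 5 (2.36%). With sh#2 they were 2 without the filter, with upper quartile factors and with total counts (0.746%, 1.8% and 1.66% of all genes). Without these tumors they were 7 (3.72%). shCtrl tumor 5 had been picked for its low members, so the counts without it depend on that choice. In the interaction, sh#2 alone gave 3 higher (11.2% of all genes).

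With single libraries left out, culture gave 1 to 5 higher, 2 to 5 lower and medians of 0.025 to 0.084 with both hairpins, 12 to 20, 2 to 3 and 0.13 to 0.16 with sh#1, 6 to 9, 12 to 18 and -0.10 to -0.058 with sh#2, and 20 to 28, 1 to 2 and 0.22 to 0.29 between them. Tumors gave 0 higher throughout, 0 to 4 lower and medians of -0.17 to -0.082 with both hairpins, 1 to 2 and -0.14 to -0.059 with sh#1, 0 to 5 and -0.23 to -0.11 with sh#2, and 0 and 0.0071 to 0.069 between them. In the interaction 1 was higher and 1 to 6 were lower. The shares of all genes called in these fits were not counted. A change in the members called therefore cannot be told apart from a change over all genes.

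Libraries with the same replicate number did not deviate together, with correlations of -0.01 to 0.06 in culture and -0.10 to 0.13 in tumors, so the numbers do not pair them. With the replicate block, culture gave 4 higher and 3 lower (6.57% and 6.07% of all genes) with a median of 0.055. Tumors gave 0 higher and 0 lower (0.632% and 0.653% of all genes) with a median of -0.11. The calls of MRPL55, MTRFR and TFB2M in culture and of MRPS28 in tumors were not made in this fit (q = 0.119 for MRPS28). Pseudogene counts could be summed only in the tumors, since no pseudogenes of members were analysed in culture.

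Tumor totals limit the low members, and 8 of 77 could not be tested. Mix and group of the tumors cannot be told apart.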
